A study of Rattus norvegicus with 3 samples.

Results

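Chromatin immunoprecipitation with sequencing (ChIP-seq) of Seh1 in rat oligodendrocyte lineage cells gave lists of bound positions, and 494 peaks that lie inside introns close to a transcription start site (TSS) are described here. They were chosen from 9084 annotated peaks of oligodendrocyte progenitor cells (OPC) by position alone. Each is annotated in an intron, carries no repeat or CpG island label in the finer annotation, and lies 10 kb or less from the nearest annotated TSS. They are called near-TSS intron peaks below. Immature oligodendrocytes (iOL) were OPC kept for 1 day with triiodothyronine (T3) at 60 nM, with PDGF-AA, bFGF and NT3 withdrawn, whereas OPC were grown with PDGF-AA, CNTF, bFGF and NT3. Both came from cultures of Sprague Dawley rat forebrain at postnatal day 1 to 2. There was 1 Seh1 library of iOL, 1 IgG library of iOL whose values were not analysed here, and 1 Seh1 library of OPC. The iOL list held 6704 peaks of 209 bp and the OPC list 9117 peaks of 205 bp, on build rn6. The depth is unknown, as no read totals were given, and every interval covers counting error only. With 1 library per stage no replicate error could be had, so each test compares groups of peaks in these lists and not the stages. The files hold no expression values, so the cell types could not be checked against their markers.

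Seh1 is a subunit of the Y complex, the scaffold that forms the outer rings of the nuclear pore. Some pore proteins also contact chromatin away from the nuclear envelope, at promoters and enhancers. The first intron of a mammalian gene begins past the promoter and the first exon. It is often the longest and frequently carries enhancers and other control elements. T3 acts through nuclear receptors on such elements and drives OPC to leave the cell cycle and to make myelin.

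Some near-TSS intron peaks lay very close to a TSS, so the promoter at that TSS is shown. RefSeq promoters of build GRCr8 were at hand for 6 of the 10 closest genes. The 3 below are the last 100 bases before the start and the first 50 after it, read along the gene. They belong to Hpgd, which inactivates prostaglandins (peak centre 143 bp downstream of the TSS, minus strand), to Zap70, a kinase of T cell receptor signalling (185 bp, plus strand), and to Rpl3, a protein of the large ribosomal subunit (195 bp, minus strand). Capitals mark a match on either strand to the TATA box (TATAAA), the GC box (GGGCGG), the CCAAT box or the E-box (CAGATG).
Hpgd: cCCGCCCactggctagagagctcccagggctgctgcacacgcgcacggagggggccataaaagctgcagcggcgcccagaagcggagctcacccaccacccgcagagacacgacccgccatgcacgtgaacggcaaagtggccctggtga
Zap70: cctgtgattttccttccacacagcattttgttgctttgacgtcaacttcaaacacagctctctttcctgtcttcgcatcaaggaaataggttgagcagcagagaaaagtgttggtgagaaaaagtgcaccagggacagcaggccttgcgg
Rpl3: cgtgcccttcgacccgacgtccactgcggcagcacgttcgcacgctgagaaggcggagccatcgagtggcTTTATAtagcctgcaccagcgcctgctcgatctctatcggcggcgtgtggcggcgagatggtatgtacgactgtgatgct

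The Hpgd window held 1 match to the GC box and the Rpl3 window 1 match to the TATA box, each on the antisense strand, and the Zap70 window held none of the 4 motifs. Of 33469 RefSeq promoters, 25.3% held the GC box in the same window and 7.27% the TATA box, while 21.6% held the CCAAT box and 8.12% the E-box. The windows differed widely in base composition, with a GC content of 68.0% at Hpgd, 47.3% at Zap70 and 62.0% at Rpl3. Counted from the TSS in rn6, the Hpgd peak spans 41 to 245 bp downstream, the Zap70 peak 83 to 287 bp and the Rpl3 peak 93 to 297 bp. The starts in GRCr8 were not compared with those of rn6. If they agree, the last bases of the Hpgd window, which ends 50 bases past the start, lie under its peak. The rest of the sequence under the peaks was not analysed here.

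Near-TSS intron peaks lay almost all on the transcribed side of the nearest TSS. This was so for 449 of 494, or 90.9% (95% exact binomial interval 88.0 to 93.3%), and 411 of them lay in an intron of the very transcript that starts there, which places them downstream by construction. The share was 57.6% of all annotated OPC peaks and 81.3% of unlabelled intron peaks beyond 10 kb. It reached 95.8% of intron peaks within 10 kb that carry a repeat or CpG island label, so it is not particular to this set. Distances ran from -9952 to 9982 bp with a median of 4.21 kb on either side. Within 1 kb downstream there were 91 peaks, 53 of them within 500 bp. A further 48 lay from 1 to 2 kb, 130 from 2 to 5 kb and 180 from 5 to 10 kb. None lay closer than 139 bp downstream or 1421 bp upstream, since the promoter class of the annotation takes the positions around the TSS.

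**Figure D1:**
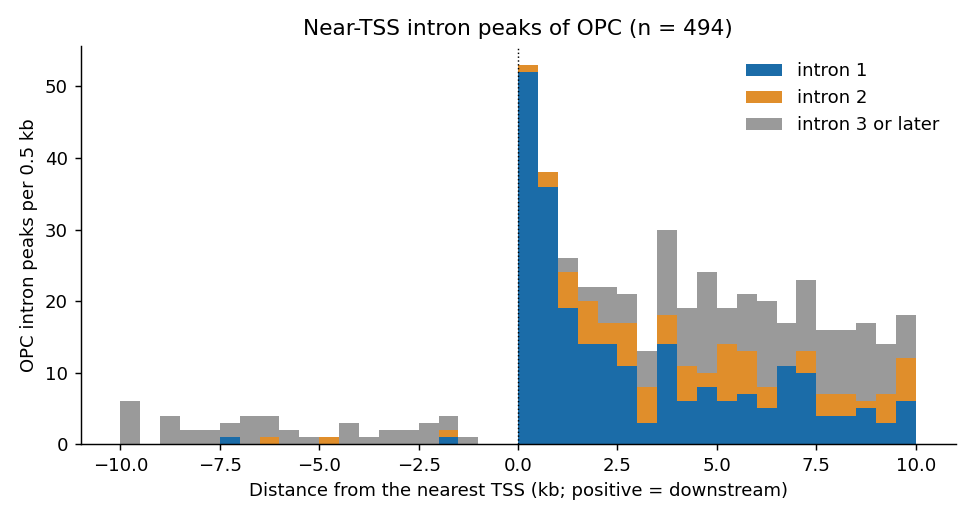
Number of near-TSS intron peaks of OPC per 0.5 kb of signed distance to the nearest TSS (kb, positive downstream), stacked by the number of the intron. Intron 1 fills nearly all of the first kb downstream (88 of 91 peaks), and the 45 peaks upstream lie in introns of other transcripts.

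The authors' deposited table also holds a set of labels with wider promoters. With a promoter extended to 1 kb downstream, 91 of the 494 peaks are called promoter, with 2 kb 139, and with 5 kb 269. These are exactly the peaks within those distances downstream of their TSS, and none of the 45 upstream peaks changed label. At the outer edge, the peaks just inside the limit lay in introns of Sorl1, a sorting receptor for the amyloid precursor protein (9982 bp), of Hivep3, a zinc finger transcription factor (9981 bp), and of Gypc, a red cell membrane protein (9957 bp). Just outside were intron peaks nearest to Hacd3, an enzyme of long-chain fatty acid elongation (10012 bp), to Fam83f (10048 bp) and to Omp, the olfactory marker protein (-10103 bp). Their scores were 8.3, 7.02 and 7.02 inside and 7.02, 7.02 and 8.3 outside, in the order named.

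First introns held the largest group of near-TSS intron peaks, 240 of 494 or 48.6% (exact binomial interval 44.1 to 53.1%). Intron 2 held 79 peaks, intron 3 held 44, intron 4 held 38 and intron 5 or later 93. The median intron number was 2, in transcripts with a median of 10 introns. Peaks within 1 kb downstream were in intron 1 in 88 of 91 cases (96.7%), those at 1 to 2 kb in 33 of 48 (68.8%), those at 2 to 5 kb in 57 of 130 (43.8%) and those at 5 to 10 kb in 60 of 180 (33.3%). The distance limit favours early introns, so no test was made against introns farther away, where 221 of 1238 unlabelled peaks (17.9%) were in intron 1. Over all 2674 intron peaks of the list, labelled or not, the share was 31.1%. The transcript with the most introns was Col7a1, the collagen of anchoring fibrils, where a peak lay in intron 82 of 117 (chromosome 8, 117716433 to 117716637, score 8.3).

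Intron peaks with a repeat or CpG island label and the same distance limit were in intron 1 more often. The share was 48.6% of 494 near-TSS intron peaks and 74.4% of 308 labelled ones (exact binomial interval 69.1 to 79.1%), a difference of -25.8 percentage points (Fisher's exact test, two-sided, Benjamini-Hochberg adjusted over 8 planned comparisons, p = 2.93e-12). The labelled group as a whole sat closer to a TSS, with a median absolute distance of 0.835 kb beside 4.21 kb for near-TSS intron peaks. That held for its CpG island peaks (0.339 kb) but not for its repeat peaks (6.02 kb). The part of distance in this result was not tested. When the labelled group was divided after its values had been seen, CpG island peaks were in intron 1 in 156 of 174 cases (89.7%, difference -41.1 points, Fisher's exact test, adjusted p = 5.94e-23). Against repeat peaks alone, of which 73 of 134 (54.5%) were in intron 1, the difference shrank to -5.89 points and did not pass (Fisher's exact test, adjusted p = 0.486). Within 1 kb of a TSS, the share was 96.7% for the 91 near-TSS intron peaks and 95.4% for 152 CpG island peaks. From 1 to 10 kb it was 37.7% of 403 near-TSS intron peaks (33.0 to 42.6%), 11 of 22 CpG island peaks (28.2 to 71.8%) and 52.8% of 127 repeat peaks (43.7 to 61.7%), which were not tested against each other.

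**Figure D2:**
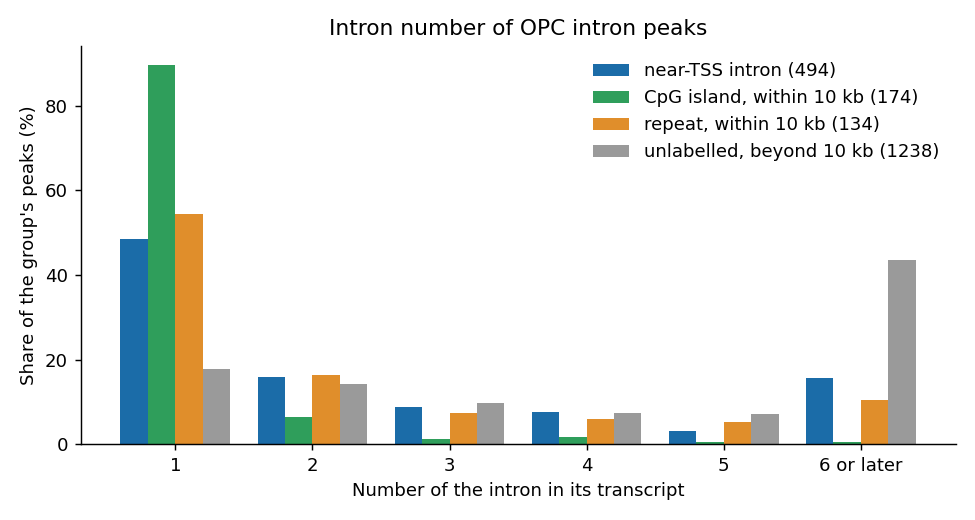
Share of peaks (%) by the number of the intron in its transcript for 4 groups of OPC intron peaks, with the group sizes in the legend. The near-TSS intron peaks (48.6% in intron 1) stand between CpG island peaks (89.7%) and unlabelled peaks beyond 10 kb (17.9%).

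The 10 near-TSS intron peaks closest to a TSS were all in intron 1. The closest lay 139 bp downstream of the TSS of Slc11a1, a metal ion transporter of phagosomes (chromosome 9, 81655733 to 81655937, score 7.02), and another at 143 bp from that of Hpgd (chromosome 16, 37495513 to 37495717, score 7.02). Zap70 (185 bp) and Rpl3 (195 bp) each had a score of 8.94. The protease-activated receptor gene F2rl1 (205 bp) had a score of 10.2 and was the only one of these 10 that was also among the 10 highest scores. Peaks at Tnni2, a troponin of fast muscle (210 bp), at the neutral sphingomyelinase gene Smpd4 (220 bp), at the chemerin receptor gene Cmklr1 (239 bp) and at Ramp2, a partner of the calcitonin receptor-like receptor (253 bp), followed with scores of 7.66, 7.66, 7.02 and 8.3. None of the 10 belongs to the oligodendrocyte lists used here.

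The strength of a peak is given in the authors' deposited table as the caller's score, whose definition is not stated. Near-TSS intron peaks took 11 different scores from 5.75 to 14, with a median of 7.66 and quartiles of 7.02 and 7.66, while the other 8590 annotated OPC peaks had the same median with quartiles of 7.02 and 8.3. Of the 494 peaks, 155 had a score of 7.02 and 141 a score of 7.66, so most differ by a single step of the caller. Scores above the list's median of 7.66 were found in 113 of 494, or 22.9% (19.2 to 26.8%), beside 27.6% of all annotated peaks. The other annotated peaks reached 27.9%, a difference of -5.02 points that did not pass (two-sided Fisher's exact test, adjusted p = 0.06). For the 411 peaks in an intron of the nearest transcript it was -5.74 points and passed (Fisher's exact test, adjusted p = 0.044). Unlabelled intron peaks beyond 10 kb reached 21.7% of 1238 (19.5 to 24.1%), a difference of 1.15 points (Fisher's exact test, adjusted p = 0.927). Among the near-TSS intron peaks, those in intron 1 scored above the median in 18.8% of 240 (14.0 to 24.3%) and those in later introns in 26.8% of 254 (21.4 to 32.7%), which was not tested. The focus ratio, a fraction per peak from the authors' caller, exceeded the list's median of 0.778 in 235 of 494 peaks, 47.6%, and in 47.6% of all annotated peaks (difference from the others 0.0156 points, Fisher's exact test, adjusted p = 1).

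**Figure D3:**
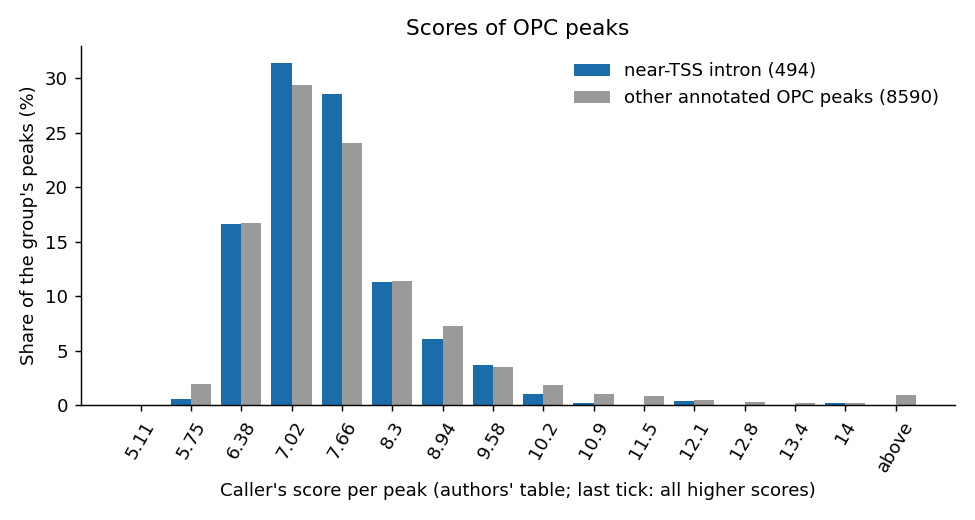
Share of peaks (%) at each score of the caller in the authors' table, for the 494 near-TSS intron peaks and the 8590 other annotated OPC peaks. Both groups gather at 7.02 and 7.66, and the highest near-TSS intron peak stands at 14.

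The highest score among near-TSS intron peaks belonged to the complement gene C3. This peak lay in intron 13 of 40, 5348 bp downstream of the TSS (chromosome 9, 9726383 to 9726587, score 14). An iOL peak stood 0.43 kb from it without overlap. A score of 12.1 was reached in the only intron of Klf16, a Krüppel-like transcription factor (7053 bp; chromosome 7, 12013661 to 12013865), and in intron 3 of Pms2, a mismatch repair gene (3577 bp; chromosome 12, 12734962 to 12735166). A peak upstream of Mir203 followed at 10.9. Scores of 10.2 were found at Ilf2, which encodes a partner of a double-stranded RNA binding protein (8205 bp), at Mir3558 (8029 bp), and at Rhbdf1, an inactive rhomboid protease gene (1010 bp). F2rl1 and Upb1, an enzyme of pyrimidine breakdown (4565 bp), had the same score. Hbs1l, a ribosome rescue factor (9154 bp), came next with 9.58, the first in genome order of 18 peaks with that score. Only 9 of the 494 peaks scored above 10.

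Few near-TSS intron peaks were found again in iOL. An iOL peak overlapped 3 of 494, or 0.607% (0.125 to 1.76%), by at least 1 bp, beside 1.73% of all annotated OPC peaks. The difference from the other annotated peaks, of which 154 of 8590 (1.79%) overlapped, was -1.19 points and did not pass (two-sided Fisher's exact test, adjusted p = 0.0981). Without copies of 7SL and 7SK RNA, of which the near-TSS intron peaks hold 0, the others reached 1.33% and the difference was -0.726 points (Fisher's exact test, adjusted p = 0.434). The share was 0.404% of 1238 unlabelled intron peaks beyond 10 kb (5 peaks, 0.131 to 0.94%; Fisher's exact test, adjusted p = 0.927) and 0.325% of 308 labelled intron peaks within 10 kb (1 peak; Fisher's exact test, adjusted p = 1). The difference from the other annotated peaks did pass with a distance limit of 20 kb (-1.2 points, Fisher's exact test, adjusted p = 0.0382). It also passed with one of 5 kb (-1.78 points, Fisher's exact test, adjusted p = 0.041), which leaves 0 overlaps in 286 peaks because all 3 lie farther out. With 3 overlaps in the 494 peaks, these values rest on very few events.

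The widest of the 3 overlaps was in intron 1 of Ubash3b, a phosphatase gene that dampens receptor tyrosine kinase signalling. There the iOL peak (chromosome 8, 45367802 to 45368010) and the OPC peak (45367825 to 45368029, score 6.38) shared 186 bp, 7207 bp downstream of the TSS. In intron 2 of the P-cadherin gene Cdh3 the iOL peak (chromosome 19, 38678931 to 38679139) and the OPC peak (38679034 to 38679238, score 7.02) shared 106 bp. In intron 13 of Araf, a kinase of the MAP kinase cascade, the iOL peak (chromosome X, 1381179 to 1381387) and the OPC peak (1380990 to 1381194, score 8.3) shared 16 bp. All 3 lay more than 7 kb from the TSS, and their OPC scores lay within 2 steps of the caller around the list's median.

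Nearby rather than overlapping iOL peaks were more frequent. The centre of an iOL peak lay within 10 kb of 72 of the 494 near-TSS intron peaks, 14.6% (11.6 to 18.0%), beside 10.0% of all annotated OPC peaks. Of 1238 unlabelled intron peaks beyond 10 kb, 133 had such a neighbour (10.7%, 9.07 to 12.6%), a difference of 3.83 points that did not pass (two-sided Fisher's exact test, adjusted p = 0.0852). For the 411 peaks in an intron of the nearest transcript it was 4.59 points and passed (Fisher's exact test, adjusted p = 0.046). With a distance limit of 5 kb it shrank to 0.9 points (12.6% against 11.7%, Fisher's exact test, adjusted p = 0.689), and with labelled peaks added to 1.96 points (adjusted p = 0.204). In comparisons added after the values had been seen, the share was 9.77% of the 8590 other annotated peaks (difference 4.81 points, Fisher's exact test, adjusted p = 0.00461), 8.44% of 308 labelled intron peaks within 10 kb (6.13 points, adjusted p = 0.04) and 12.5% of 304 unlabelled intergenic peaks within 10 kb of a TSS (2.07 points, adjusted p = 0.919). Both lists may gather around genes, and the part of gene density in these values was not tested. By distance, the share was 11.0% of the 91 peaks within 1 kb downstream and 18.3% of the 180 at 5 to 10 kb (13.0 to 24.8%), with intervals that overlap. The median distance to the nearest iOL peak was 58.9 kb for near-TSS intron peaks, 53.9 kb for unlabelled intergenic peaks within 10 kb of a TSS, 70.9 kb for unlabelled intron peaks beyond 10 kb and 90.2 kb for the other annotated peaks.

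**Figure D4:**
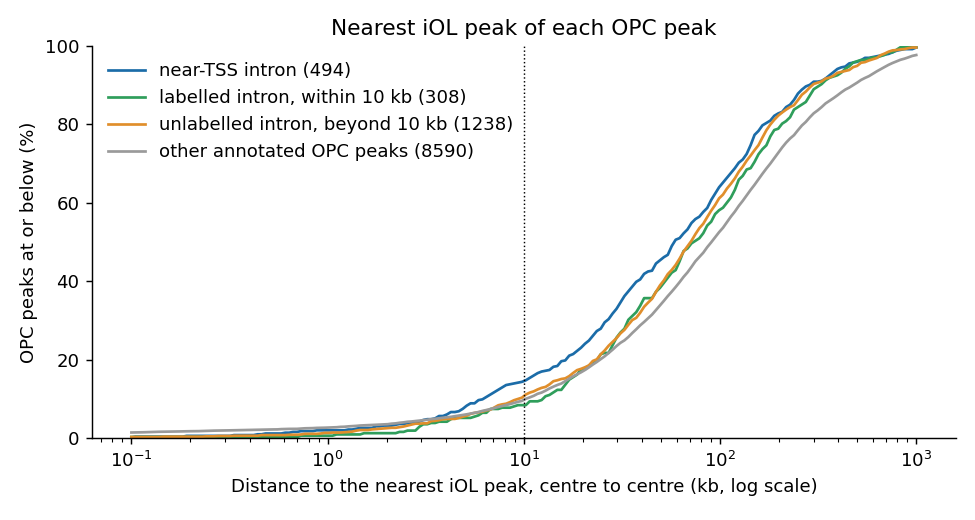
Cumulative share of OPC peaks (%) by the distance to the nearest iOL peak, centre to centre (kb, log scale), for near-TSS intron peaks, labelled intron peaks within 10 kb, unlabelled intron peaks beyond 10 kb and the other annotated peaks. At the dotted line of 10 kb the near-TSS intron peaks reach 14.6% and the other annotated peaks 9.77%.

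Within 1 kb of an iOL peak centre there were 10 near-TSS intron peaks, 2.02% (0.975 to 3.69%), the 3 overlapping ones included. The share was 2.68% of all annotated OPC peaks, so such closeness is not particular to this set. The other 7 were picked out after their values had been seen. They lay at Grk2, a kinase of G protein-coupled receptors (0.32 kb from the iOL peak), and at C3 (0.43 kb). Next came the Col7a1 intron peak whose nearest gene is Mir711 (0.476 kb) and a peak at Washc1, an actin nucleation factor of endosomes (0.593 kb). Scn4b, a sodium channel subunit (0.657 kb), B4galt5, a galactosyltransferase of glycolipid synthesis (0.727 kb), and Cyp26b1, which breaks down retinoic acid (0.868 kb), made up the rest. In Grk2, Scn4b and Cyp26b1 the OPC peak itself lay in intron 1, at 414, 417 and 602 bp from the TSS.

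The 494 peaks had 480 nearest genes. Of 18539 coding genes in the gene name table, 467 were the nearest gene of a near-TSS intron peak, 2.52%. Of 864 genes in 19 lists that cover the oligodendrocyte lineage, signalling, adhesion and other cell types, 27 had one, 3.12%, which is near that background. The lists are described by their counts, with no test.

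Of 38 myelin and mature oligodendrocyte genes, 2 had a near-TSS intron peak (5.26%, 0.644 to 17.7%), beside 2.52% of all coding genes. These were Septin4, a scaffold protein of the myelin sheath (intron 3, 3613 bp, score 7.66), and Nfasc, an adhesion protein of the paranode, with peaks at 3806 and -7439 bp, both scoring 7.02. Of 39 genes of OPC and inhibitors of differentiation, the proteoglycan gene Vcan alone had one (2.56%; intron 1, 2866 bp, score 7.66). Among 68 lineage and other transcription factors there were 2 (2.94%), the hedgehog effector Gli2 (intron 1, 288 bp, score 7.02) and the Hippo effector Tead1, whose first intron held a peak at 1502 bp (score 7.66) and another at 3996 bp (score 6.38). Chromatin regulators had 3 of 63 (4.76%): Smarcd2, a subunit of the BAF remodelling complex (383 bp, score 7.02), the histone demethylase gene Kdm4b (2900 bp, score 7.02) and Dpf1, a BAF subunit of neurons (6514 bp, score 8.3). No gene of 45 nucleoporins and transport factors had one, and the intervals of all 5 lists include the background.

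The lists of ion channels and of growth factor receptors and kinases had the highest shares of the 19. Growth factor receptors and kinases had 5 of 58 (8.62%, 2.86 to 19.0%), of which Fgfr1 (4205 bp, score 7.66) and Fgfr3 (9177 bp, score 8.3) bind fibroblast growth factors. Ntrk2, the receptor for BDNF (2482 bp, score 7.66), Lifr, the receptor for LIF that also carries the CNTF signal (6837 bp, score 9.58), and Met, the receptor for HGF (7326 bp, score 6.38), were the others. Ion channel genes had 5 of 53 (9.43%, 3.13 to 20.7%), namely the calcium channel subunit gene Cacna2d1 (358 bp, score 7.66) and the potassium channel genes Kcna2 (1319 bp, score 7.02), Kcnk2 (5520 bp, score 8.3), Kcnt1 (6000 bp, score 7.66) and Kcnc1 (7046 bp, score 7.66). The lower bounds of both intervals lie just above the background of 2.52%, over 19 lists and with no adjustment for their number. Extracellular matrix and integrin genes had 4 of 62, with the collagen genes Col5a1 (657 bp, score 8.94) and Col11a2 (1537 bp, score 6.38), Vcan, and Itgb4, an integrin of hemidesmosomes (4569 bp, score 8.3).

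**Figure D5:**
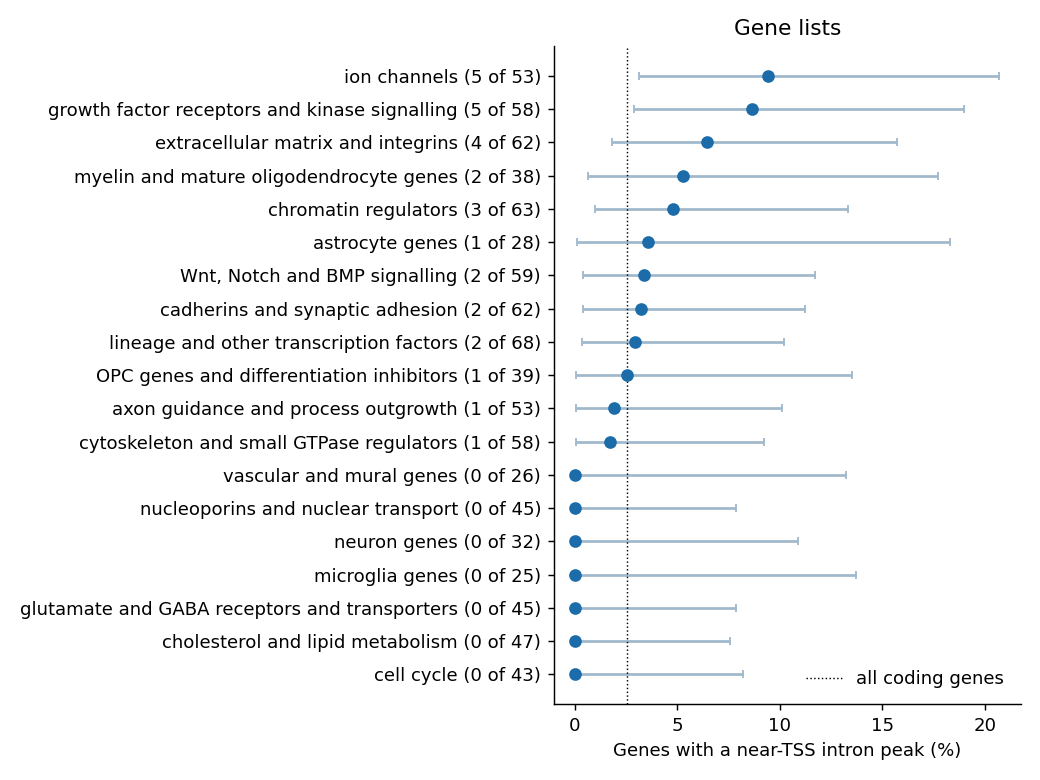
Share of the genes of each list (%) that are the nearest gene of a near-TSS intron peak, with exact binomial 95% intervals as bars and the counts beside the names. The dotted line is the share over all coding genes, 2.52%, and every interval but those of growth factor receptors and of ion channels includes it.

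The list of Wnt, Notch and BMP genes had 2 of 59, the BMP receptor gene Bmpr2 (608 bp, score 7.02) and Wnt7b, a ligand that guides vessel growth in the mouse brain (1297 bp, score 9.58). Cadherins and synaptic adhesion genes had 2 of 62, among them Csmd1, a complement control gene (2384 bp, score 7.02). Axon guidance genes had 1 of 53, the netrin-G gene Ntng2 (7787 bp, score 7.02), and cytoskeleton and GTPase genes 1 of 58, the exchange factor gene Arhgef7 (7886 bp, score 6.38). Of 28 astrocyte genes Fgfr3 alone had one. No near-TSS intron peak was nearest to any of 45 glutamate and GABA receptor and transporter genes, 47 genes of cholesterol and lipid metabolism, 43 of the cell cycle, 32 of neurons, 25 of microglia or 26 of vessels. A count of 0 in lists of this size allows shares of up to 13.7% (microglia, exact binomial interval), so absence was not shown.

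Classes read from the gene descriptions gave a broader view of the 480 genes, set beside the 5796 nearest genes of the whole table and with no test. Genes with receptor in the description made up 40 (8.33%, against 8.94% in the table), and genes with kinase or phosphatase in the description 39 (8.12% against 6.26%), which include enzymes of metabolism, substrates and anchoring proteins. Solute carriers made up 23 (4.79% against 2.35%). After Slc11a1, the closest to a TSS were Slc17a9, a vesicular transporter of nucleotides (259 bp), Slc6a19, a transporter of neutral amino acids (288 bp), and Slc35a3, a Golgi transporter of nucleotide sugars (421 bp). The serotonin transporter gene Slc6a4 (499 bp) and Slc16a1 (695 bp), whose product MCT1 carries lactate and is known to supply axons from oligodendrocytes, followed. All of these 5 peaks were in intron 1, with scores of 7.02 except for Slc6a19 at 9.58. Genes matched by the words for collagen, laminin or integrin made up 6 (1.25% against 0.552%) and zinc finger genes 10 (2.08% against 2.35%). These classes also hold stray matches, such as Colgalt1, a galactosyltransferase gene, in the first. The ion channel class, broader than the list above, made up 11 (2.29% against 1.78%) and includes Kctd10, matched by its channel tetramerization domain. Of the remaining classes, GTPase regulators (1.67% against 1.17%), which include the translational GTPase gene Hbs1l, and the ubiquitin pathway (2.29% against 2.1%) stood above the table. RNA binding or splicing (0.833% against 0.932%), microRNA (1.67% against 1.88%) and uncharacterized genes (1.46% against 2.76%) stood below it. The solute carriers after Slc11a1 were picked after their values had been seen.

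Most genes had a single near-TSS intron peak, while 14 had 2 and none had more. In 6 of the 14 pairs both peaks lay in the same intron, and 9 pairs were no farther apart than 3000 bp. The closest pair, 846 bp apart, was in introns 6 and 8 of Loxl4, a lysyl oxidase that crosslinks collagen. Pairs within 1 intron were found in Slc25a28, an iron importer of mitochondria (934 bp apart), in Enoph1, an enzyme of methionine salvage (1147 bp), in the zinc finger gene Zim1, which is imprinted in mouse (1644 bp) and in Tead1 (2494 bp). Bcl2l11, which encodes the death factor Bim (2678 bp), and the corepressor gene Cbfa2t2 (7595 bp) had the others. The 2 peaks of Nfasc lay 85252 bp apart and on different sides of their nearest TSS, since 2 annotated starts of the gene were involved. Another OPC peak of any class stood within 1 kb of 6 near-TSS intron peaks and within 10 kb of 86, and the median distance to the next one was 37.6 kb. The same counts were not made for other groups of peaks, so these do not show whether the peaks cluster.

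The intron that holds a peak did not always belong to the nearest TSS. It was an intron of the nearest transcript in 411 of 494 cases (83.2%, 79.6 to 86.4%), of another transcript of the nearest gene in 19 and of a different gene in 60, and 4 host transcripts had no match in the gene tables. Of the 45 peaks upstream of their nearest TSS, 39 lay in an intron of a different gene. An example is a peak assigned to Prmt3, an arginine methyltransferase, at -6726 bp, which lies in intron 3 of its neighbour Htatip2. The other near-TSS intron peak of Prmt3, at 8806 bp, is in its own intron 6. Peaks hosted by a different gene scored above the list's median in 28.3% of 60 (17.5 to 41.4%) and those of the nearest transcript in 22.1% of 411 (18.2 to 26.5%), which was not tested.

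Of the 494 peaks, 486 were nearest to a coding gene and 8 to a microRNA gene, and in all 8 the intron belonged to a coding gene. The mature forms of the microRNAs nearest to the peaks are shown from RefSeq, build GRCr8, as the products of the transcripts that these intron peaks neighbour, with the seed (bases 2 to 8) in capitals.
rno-miR-203a-3p: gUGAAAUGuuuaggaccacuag
rno-miR-203a-5p: aGUGGUUCuuaacaguucaac
rno-miR-3558-3p: aCUGUGGAggguuucuaugu
rno-miR-3558-5p: cCAUAGAAgucaucccacagugcc
rno-miR-711: gGGACCCUgggagagauguaag
rno-miR-148b-3p: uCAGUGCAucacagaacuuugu
rno-miR-3550: cCGAGCCCaucccugcccuag
rno-miR-3075: uGUCUGGGagcagccaaggacaag
rno-miR-140-5p: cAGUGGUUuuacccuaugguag
rno-miR-140-3p: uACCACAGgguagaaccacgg

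No 2 of these 10 sequences share a seed. The peak with the highest score of this group lay upstream of Mir203, a microRNA known for limiting the stem cell state in mouse skin, at -4283 bp in intron 14 of 14 of the asparaginase gene Aspg (chromosome 6, 136700576 to 136700780, score 10.9). The peak at Mir3558 lay in intron 18 of 19 of Ttc7a (8029 bp, score 10.2) and that at Mir711 in Col7a1 (4968 bp, score 8.3). Mir148b, in the coatomer gene Copz1 (4922 bp, intron 2 of 8), and Mir3550, in the kinase gene MAST1 (6182 bp, intron 14 of 25), each had a score of 7.02. Mir3075, in the transcriptional coactivator gene Zmiz1 (-6312 bp, intron 2 of 23), and Mir140, in the ubiquitin ligase gene Wwp2 (-6558 bp, intron 6 of 19), each had 7.66. The eighth was assigned to Mir504 on chromosome 6, in intron 10 of 12 of the sterol transporter gene Abcg5 (2786 bp, score 7.02). RefSeq places that microRNA on chromosome X in GRCr8, so this tie is uncertain and its sequence is not shown.

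Near-TSS intron peaks were found on all autosomes and on chromosome X, and made up 494 of all 9084 annotated OPC peaks. Chromosome 1 held 82 of them, 8.28% of its 990 annotated peaks (6.64 to 10.2%), and chromosome 20 held 22 of 287 (7.67%). Chromosome 6 stood at the low end among autosomes with 15 of 475 (3.16%, 1.78 to 5.16%), next to chromosome 4 with 17 of 537 (3.17%, 1.85 to 5.02%). Chromosome X held 3 of 127 (2.36%, 0.49 to 6.75%). The length of intron near a TSS on each chromosome was not measured, so these shares show neither preference nor avoidance.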

How the data were processed

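For each Seh1 library the deposited list gives peak positions without scores. A single annotated table came from annotatePeaks.pl of HOMER with rn6, per the file headers, which name Seh1 of OPC and IgG of iOL. It is recorded under iOL, but all 9084 of its intervals equal OPC intervals and 0 equal iOL intervals, so it was used for OPC. The other 33 OPC peaks have no annotation. Bowtie2 and HOMER, with builds rn6 and hg18, are named in the submitters' processing notes. Read trimming, duplicate removal and peak thresholds were not stated. These steps decide which weak peaks are listed and so could change every count.

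The table's score per peak and its focus ratio, a fraction from 0 to 1, are the authors' deposited values and were not rescaled. Distances run from the peak to the nearest TSS, positive downstream. A second annotation column of the same name, which disagrees with the first, was not used. Genes were matched by numeric ID to the RefSeq gene table of GRCr8, which gave names only: 477 of 480 nearest genes and 490 of 494 intron hosts matched, and 1 symbol turned into a date was restored. Of the 480 genes 373 had an entry in the promoter table, under 80%, so promoter properties were not compared over the set.

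Peaks overlapped when they shared at least 1 bp. Shares have exact binomial 95% intervals. The 8 planned comparisons of shares used Fisher's exact test, two-sided, adjusted by Benjamini-Hochberg, with a threshold of 0.05. Each comparison added later replaced its planned one in this adjustment. With labelled peaks added, the comparisons against labelled peaks fell away, and the adjustment covered only those left. Counting and test were checked on simulated data. Python 3.11.15, pandas 2.3.3 and SciPy 1.17.1 were used. The peaks and gene lists were chosen with earlier results of these data known. Named peaks are the 10 highest scores, the 10 nearest to a TSS, every peak overlapping iOL, list genes (up to 6 a list), genes with 2 peaks, peaks at the distance limit, the highest intron number and peaks at microRNA genes. Some named peaks are not reported here.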

Additional observations from a re-analysis of the deposited data

How the results depend on the processing

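Of 93 recomputed values, 57 kept their direction and side of the threshold, or stayed within the interval of the value reported. Differences below are in percentage points, near-TSS intron peaks minus the others. The higher share of intron 1 in labelled peaks passed under every alternative except against repeat peaks alone (-5.89), an alternative chosen after seeing the data. None of these alternatives matched the groups by their distance to the TSS. The lower share of iOL overlaps than in the other annotated peaks, which did not pass, passed by Fisher's exact test with a limit of 5 kb (-1.78, adjusted p = 0.041, with 0 overlaps in 286 peaks), with 20 kb (-1.2, adjusted p = 0.0382), with labelled peaks added (-1.35, adjusted p = 0.0153) and among scores at or above the median (-2.52, adjusted p = 0.026). Copies of 7SL and 7SK RNA were not taken out in the alternatives that passed. Without these copies, with the limit of 10 kb, the difference was -0.726 and did not pass (Fisher's exact test, adjusted p = 0.434). Over all alternatives run, the adjusted p of this comparison ranged from 0.0153 to 0.629 (Fisher's exact test). Against unlabelled peaks beyond the limit the overlap difference turned with 5 kb (-0.553), with labelled peaks added (-0.783) and among high scores (-0.12). Against labelled peaks it turned with 5 kb (-0.444), 20 kb (-0.0762) and high scores (-0.216).

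The share with a score above the median fell below that of the other peaks past the threshold with 20 kb (-3.98) and with introns of the nearest transcript only (-5.74). Among peaks at or above the median score it was -9.25, and against far intron peaks -1.57, but that selection uses the score being compared, so neither value bears on it. The iOL neighbourhood, at 0.9 with 5 kb and 1.96 with labelled peaks, passed with introns of the nearest transcript only (4.59) and, in comparisons added after seeing the data, against the other annotated peaks (4.81) and labelled peaks (6.13). The difference in focus ratio, near 0, turned with 5 kb (-2.17), with labelled peaks (-1.97) and with introns of the nearest transcript only (-0.116). The cause of these changes was not tested.

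Other values moved because the peaks themselves were other ones. There were 286 peaks with 5 kb, 792 with 20 kb, 802 with labelled peaks and 254 with high scores. The share in intron 1 was 62.6% with 5 kb, 41.0% with 20 kb, 58.5% with labelled peaks and 55.7% with introns of the nearest transcript only. The downstream share was 94.1% with 5 kb and 100% with the nearest transcript only, which fixes it. The intron belonged to the nearest transcript in 88.1% with 5 kb and 78.0% with high scores. List genes numbered 56 with 20 kb, 48 with labelled peaks and 15 with high scores. No paired analysis was possible because each stage had 1 library and the labels carry no replicate numbers. With the depth unknown and 1 library a stage, a peak missing from the iOL list is not shown to be unbound.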
